A study of Homo sapiens with 11 samples.

Results

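The kinesin family was read in IMR32 neuroblastoma cells through every probe set whose annotated gene symbol is KIF followed by a digit. That rule took 42 symbols with 86 probe sets out of 19775 genes named on the array. They were 38 kinesin genes and 4 antisense transcripts (KIF1C-AS1, KIF9-AS1, KIF23-AS1 and KIF25-AS1). The kinesins were contrasted as 11 measured mitotic motors and 15 motors of axonal and organelle transport, and 12 others stood beside them. The dimmest 40 percent of genes were not tested, which left 32 of the 42 members in the comparisons: 11 of 11 mitotic, 14 of 15 transport and 6 of 12 other kinesins, and KIF25-AS1.

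The series followed mRNA of IMR32, an established human neuroblastoma cell line that carries amplified MYCN, after transduction with lentivirus. Cells without virus were collected at 0 hours (2 arrays), cells with a control hairpin virus (SHC002) at 24, 48 and 72 hours (1 array each), and cells with a virus carrying a hairpin against MYCN (shMYCN#3) at the same 3 times (2 arrays each, A and B). All 11 arrays are of the same parental line, and a single hairpin was used. Whether arrays of a group come from separate cultures is not stated in the labels, and the p-values below reflect only how far such arrays differ, which may be technical.

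Kinesins are motor proteins that hydrolyse ATP to move along microtubules or to take them apart. Some of them build and position the mitotic spindle, move chromosomes and finish the division of daughter cells, and their genes are mostly switched on late in the cell cycle. Others carry vesicles, mitochondria and other cargo outward along the axon, and several of these are enriched in neurons.

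Signals below are the deposited linear intensities, scaled by the authors to nearly the same mean on every array. Median signals were 14.9 to 16.7, and arrays sharing a group had correlations over genes (not independent points) of 0.987 to 0.995. The 48-hour arrays labelled shMYCN were the least alike, with an SD of their log2 differences of 0.271 against 0.172 to 0.186 in the other groups of 2. The MYCN signal was read on its brightest probe set alone. It was 4507 to 5389.7 on the 5 arrays without the MYCN hairpin and 4567 to 5624 on the 6 labelled shMYCN. Against control virus of the same hours, the mean log2 difference of the arrays labelled shMYCN was -0.02 ± 0.08 (SE; limma adjusted p = 0.866). The arrays are therefore called "labelled shMYCN", and every direction rests on that label. Among sympathetic neuroblastoma markers, 6 were above the filter for dim genes and TH was below it. Their sum was 6274 to 7340 on the 5 arrays without the hairpin and 6467 to 7344 on those labelled shMYCN. Of 4 fibroblast markers, 3 were above the filter, with COL1A2 at 2.9 to 14.0, and their summed signal was 403 to 470.0 on the 5 arrays without the hairpin and 543 to 779 on the arrays labelled shMYCN. The glial sum (0 of 5 markers above the filter) was 5.7 to 9.6 against 3.2 to 14.4, and the leukocyte sum (2 of 4) was 46.3 to 55.1 against 43.4 to 52.9. The part of the fibroblast markers in the kinesin results was not tested.

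The sequence just before the start site is shown for 5 mitotic and 2 transport kinesins, because the short letter strings in them differ between the motors described below. Each line holds the 120 bases before the annotated start (RefSeq, GRCh38.p14), 5′ to 3′ on the strand of the gene. Capitals mark matches on either strand to TTTGAA, the core of the cell cycle homology region, or to CCAAT. On the opposite strand the first of these strings appears as TTCAAA. The second appears there, as in KIF23 and KIF4A, in the form ATTGG.
KIF23 (chr15:69414229-69414348, plus strand): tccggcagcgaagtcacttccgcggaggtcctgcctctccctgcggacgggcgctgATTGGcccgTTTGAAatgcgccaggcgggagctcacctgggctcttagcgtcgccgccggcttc
KIF4A (chrX:70289984-70290103, plus strand): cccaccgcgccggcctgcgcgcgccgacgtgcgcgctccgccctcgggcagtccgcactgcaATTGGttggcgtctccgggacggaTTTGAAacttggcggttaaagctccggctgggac
KIF11 (chr10:92593010-92593129, plus strand): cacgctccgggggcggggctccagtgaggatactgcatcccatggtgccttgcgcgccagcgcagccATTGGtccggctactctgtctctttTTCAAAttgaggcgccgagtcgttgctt
KIF18A (chr11:28108157-28108276, minus strand): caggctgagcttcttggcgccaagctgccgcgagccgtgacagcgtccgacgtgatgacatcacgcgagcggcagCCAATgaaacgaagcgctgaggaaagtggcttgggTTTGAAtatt
KIF2C (chr1:44739717-44739836, plus strand): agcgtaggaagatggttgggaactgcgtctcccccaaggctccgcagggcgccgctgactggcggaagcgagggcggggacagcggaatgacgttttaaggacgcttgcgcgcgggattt
KIF3B (chr20:32277531-32277650, plus strand): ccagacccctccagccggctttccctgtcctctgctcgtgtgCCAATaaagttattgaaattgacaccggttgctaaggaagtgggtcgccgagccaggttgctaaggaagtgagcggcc
KIF3C (chr2:25982498-25982617, minus strand): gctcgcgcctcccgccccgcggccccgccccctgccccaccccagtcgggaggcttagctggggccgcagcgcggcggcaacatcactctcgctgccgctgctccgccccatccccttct

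In KIF23, TTTGAA and CCAAT lay 55 and 64 bases before the start. In KIF4A they lay 34 and 58 bases before it, in KIF11 28 and 53 bases, and in KIF18A 10 and 45 bases. KIF2C held none of the strings in its window of 300 bases (250 before the start and 50 after it), KIF3B held CCAAT 78 bases before the start, and KIF3C held none. Over the RefSeq windows of the tested members, TTTGAA was in 8 of 12 mitotic windows (66.7%) and in 1 of 16 transport windows (6.25%), beside 15.2% of all 35116 windows. CCAAT was in 9 of 12 mitotic windows (75%) and 5 of 16 transport windows (31.2%), beside 34.6% of all. The transport window with TTTGAA was that of KIF5B, 140 bases before its start. CACGTG, an E-box that MYC proteins are known to bind, was in 0 of 12 mitotic and 0 of 16 transport windows, beside 7.26% of all. These are matches of letters and no measure of binding, and some genes have several windows. Both TTTGAA and CCAAT were in the windows of KIF4A, KIF11, KIF18B, KIF20B and KIF23, which were lower over the 3 hours in the test of expression below. Both were also in the windows of KIF14 and KIF18A, which did not pass. KIF15 held TTTGAA alone, KIF20A and KIF22 held CCAAT alone, and none of these passed over the 3 hours. KIF2C held neither string and was lower. A link between the strings and expression was not tested.

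Among the 11 mitotic kinesins under the rule, those that changed in the arrays labelled shMYCN were lower, led by KIF23 and KIF4A. The spindle motor KIFC1, whose symbol is outside the rule, was higher and is given with the partners below. Averaged over the 3 hours, 6 of the 11 tested were lower than with control virus and 0 were higher (limma, adjusted p under 0.05; 7 lower and 0 higher at an unadjusted p under 0.05). Of all 11865 genes tested, 15.8% were lower and 22.2% were higher at the adjusted threshold. At an unadjusted p under 0.05, 2325 of them were lower and 3270 higher. All 11 mitotic kinesins had a log2 difference below 0, with a median of -0.23 beside 0.037 for all genes. In RNA of a whole culture, fewer dividing cells and less mRNA in each cell cannot be told apart. Without the control virus array at 72 hours, which removes the 72-hour comparison from the mean, 2 of 11 were lower (KIF23 and KIF4A), beside 6.54% of all genes in that setting, and the median was -0.069.

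KIF23, the motor of the centralspindlin complex that is needed for the last step of division, had the largest fall of the 31 tested kinesins. Its signal was 281 and 297 without virus and 278, 250.3 and 272 with control virus at 24, 48 and 72 hours. In the arrays labelled shMYCN it was 170.2 and 175 at 24 hours, 116 and 116 at 48 hours and 112 and 101 at 72 hours. Every array labelled shMYCN lay below every other array, and the 24-hour arrays lay between the controls and the later times. The log2 fold change averaged over the 3 hours was -0.96 ± 0.07 (SE; limma adjusted p = 1.51e-06), a 1.95-fold lower level. At 72 hours KIF23 was 2.36-fold lower. The other KIF23 probe set above the filter, 244427_at, had a signal of 18.0 to 39.0 and a mean log2 difference of -0.03 (limma adjusted p = 0.928).

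KIF4A, a chromokinesin that binds PRC1 at the spindle midzone, was at 549 and 495 without virus and 534, 553 and 509.8 with control virus at the 3 hours. With the MYCN hairpin label it was 483 and 484 at 24 hours, 308 and 385 at 48 hours and 270.3 and 279.5 at 72 hours. All 6 of these arrays were below the other 5, by little at 24 hours and by most at 72 hours. The mean log2 fold change was -0.55 ± 0.07 (SE; limma adjusted p = 0.000164). KIF4B, a near copy of KIF4A, has no probe set of its own here, and whether its transcript adds to the KIF4A signal was not tested.

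KIF2C (MCAK), which takes microtubules apart at centromeres, and KIF18B, which works with it at the tips of astral microtubules, shared a later course. The KIF2C signal was 979 and 887 without virus, 889.6, 933 and 948 with control virus, and 1064 and 894, then 803 and 833, then 584 and 562 at the 3 hours with the shMYCN label. KIF18B read 906 and 846 without virus, 861, 910.4 and 911 with control virus, and 950.5 and 878, then 798 and 758, then 620.2 and 607 in the arrays labelled shMYCN. For both genes the 24-hour arrays labelled shMYCN lay at or above the 24-hour control, the 48-hour arrays lay below all 5 arrays without the hairpin, and the 72-hour arrays were the lowest of all 11. The 48-hour differences did not pass (limma adjusted p = 0.309 for KIF2C and 0.15 for KIF18B). KIF2C was lower by -0.26 ± 0.07 on the log2 scale over the 3 hours (SE; limma adjusted p = 0.0113) and by -0.71 at 72 hours (0.000757). KIF18B was lower by -0.23 ± 0.06 over the 3 hours (SE; limma adjusted p = 0.00793) and by -0.56 at 72 hours (0.00128). The other KIF2C probe set, 211519_s_at, was lower as well, with a mean log2 fold change of -0.48 (limma adjusted p = 0.000971).

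KIF11 (Eg5), the motor that pushes the spindle poles apart, changed less. It was at 797 and 788 without virus and 836, 749.9 and 754 with control virus, against 691 and 755 at 24 hours, 728 and 686 at 48 hours and 559.9 and 588 at 72 hours with the shMYCN label. Both 72-hour arrays were the lowest, while the 24-hour values overlapped the controls. Its mean log2 fold change was -0.23 ± 0.06 (SE; limma adjusted p = 0.00932).

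KIF20B, a motor of the late midzone and of cytokinesis, was at 299 and 368 without virus and 304, 304 and 294 with control virus. It was at 277 and 290.4, 226 and 228 and 192 and 252 in the shMYCN-labelled arrays at 24, 48 and 72 hours. These 6 arrays were all below the other 5, but the highest of them nearly met the lowest control. The mean log2 fold change of -0.29 ± 0.09 (SE; limma adjusted p = 0.0242) lost its call in 6 of 21 other settings and at a threshold of 0.01. Among the 6 were leaving out the 48-hour or the 72-hour control virus array, or array A labelled shMYCN at 24 or 72 hours.

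The other 5 mitotic kinesins did not pass over the mean of 3 hours. KIF22, a chromokinesin, was the nearest at -0.23 (limma adjusted p = 0.0587), and it was lower at 72 hours alone, at -0.44 ± 0.15 (SE; limma adjusted p = 0.0427). That call was lost in 8 of 19 other settings, among them no filter, no variance trend and leaving out either array without virus, either 24-hour array labelled shMYCN or array A at 72 hours, and at a threshold of 0.01. KIF20A, which carries Aurora B to the midzone, had -0.12, KIF15, which can replace KIF11 in holding the poles apart, had -0.065, and KIF18A, which damps chromosome movements, had -0.055. KIF14, a motor of cytokinesis, was at 565 and 541 without virus, 519, 486 and 576 with control virus, and 559.9 and 575, 485 and 536 and 477 and 516 in the arrays labelled shMYCN, with a mean log2 difference of -0.006 (limma adjusted p = 0.946).

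**Figure D1:**
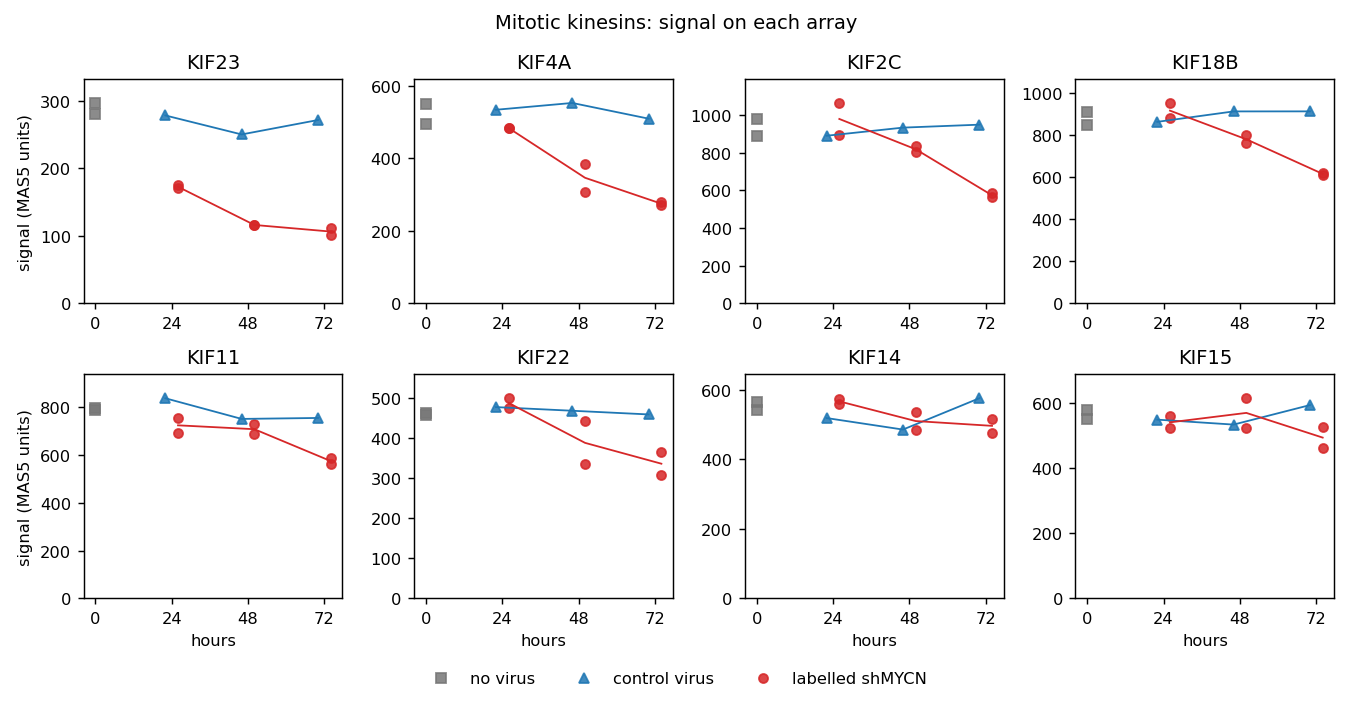
Signal (vertical, linear MAS5 units, each axis from 0) against hours for 8 mitotic kinesins. Grey squares are the 2 arrays without virus, blue triangles the control virus arrays and red circles the arrays labelled shMYCN, with lines through the group means. KIF23 and KIF4A lie below the controls at all 3 hours, KIF2C and KIF18B lie below them at 48 hours and further below at 72 hours, and KIF14 and KIF15 stay near the controls.

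Transport kinesins moved in both directions. Averaged over the 3 hours, 6 of the 14 tested were higher, 1 was lower and 7 did not pass (limma, adjusted p under 0.05). Among all genes tested 22.2% were higher and 15.8% lower. Their median log2 difference was 0.13 beside 0.037 for all genes. Among the motors named as examples of axonal transport, KIF5C and KIF21A were higher, and KIF1A did not pass.

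The kinesin-2 motors, which run as pairs of KIF3A with KIF3B or KIF3C, split. KIF3B was at 186 and 211 without virus and 186, 191 and 200 with control virus at 24, 48 and 72 hours. In the arrays labelled shMYCN it was at 269 and 264, then 391 and 364, then 541 and 528. Each of these 6 arrays was above all 5 others, and both arrays of each hour were above both of the hour before. The mean log2 fold change was 0.92 ± 0.06 (SE; limma adjusted p = 1.53e-06), and KIF3B was 2.55-fold higher at 72 hours, the largest rise among the kinesins at that hour. Its other probe set, 203943_at, gave 0.94 (limma adjusted p = 8.03e-05).

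KIF3C, the neuronal form of this subunit, was at 175 and 157 without virus and 185, 196 and 199.8 with control virus, and at 201 and 202, 264 and 283 and 344 and 381 in the shMYCN-labelled arrays at 24, 48 and 72 hours. The 24-hour arrays barely cleared the highest control, and the later ones were well above it. Its mean log2 fold change was 0.46 ± 0.07 (SE; limma adjusted p = 0.000369). KIF3A, the shared subunit, went the other way, at 249 and 261 without virus, 251, 224 and 237 with control virus, and 190.0 and 196, 172 and 172 and 231 and 220.2 in the arrays labelled shMYCN. The 24-hour and 48-hour arrays lay below all controls, and the 72-hour arrays overlapped them. The mean log2 fold change of KIF3A was -0.26 ± 0.06 (SE; limma adjusted p = 0.00743). Without the 48-hour control virus array it was -0.21 and did not pass, and the other KIF3A probe set, 213623_at, gave -0.0035 (limma adjusted p = 0.99). KIFAP3, which binds the pair to cargo, was higher at 0.27 ± 0.09 (SE; limma adjusted p = 0.0328).

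The kinesin-1 heavy chains are the main motors of fast transport away from the cell body, with KIF5A and KIF5C enriched in neurons and KIF5B present in most cells. KIF5A was at 92.2 and 91.9 without virus and 81.5, 99.9 and 107 with control virus. It was at 119 and 134, 193 and 193 and 272 and 242 in the shMYCN-labelled arrays at 24, 48 and 72 hours. These 6 arrays lay above the other 5, with higher values at each later hour. The mean log2 fold change was 0.85 ± 0.08 (SE; limma adjusted p = 8.81e-06). The other KIF5A probe sets were dim, with signals of 11.1 to 22.8 and 11 to 31.3, and did not pass.

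KIF5C was at 1488 and 1359.7 without virus and 1440.3, 1169.9 and 1372 with control virus, against 1513 and 1459, 1760.0 and 1954 and 2265 and 2035 in the shMYCN-labelled arrays at 24, 48 and 72 hours. The 24-hour arrays overlapped the controls, and all 4 later arrays were above them. The mean log2 fold change was 0.45 ± 0.06 (SE; limma adjusted p = 0.000274), and its other probe sets gave 0.44 and 0.31, both higher (limma adjusted p = 0.000978 and 0.0319). KIF5B changed least of the 3 heavy chains, from 1407, 1349.9 and 1494 with control virus to 1579.6 and 1645, 1721 and 1526 and 2028 and 1620.0 in the arrays labelled shMYCN, with a mean log2 fold change of 0.24 ± 0.08 (SE; limma adjusted p = 0.0262). That call was lost in 7 of 21 other settings, among them median scaling and leaving out the 48-hour or the 72-hour control virus array or array B labelled shMYCN at 24 hours, and at a threshold of 0.01. The groups did not overlap for KIF5B on this probe set, but the others, 224662_at and 201992_s_at, gave 0.14 and -0.14 and did not pass.

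KIF21A, a motor that restrains microtubule growth and is found along axons, was at 1579 and 1584 without virus and 1466, 1309 and 1299 with control virus. It was at 1574 and 1546, 1862 and 1514 and 1883 and 1822 in the arrays labelled shMYCN. The arrays without virus were as high as the 24-hour arrays labelled shMYCN, so the groups overlapped. Against control virus of the same hours its log2 fold change was 0.32 ± 0.07 (SE; limma adjusted p = 0.00379). Without the 72-hour control virus array it was 0.22 and did not pass. The other KIF21A probe set, 231875_at, gave 0.23 (limma adjusted p = 0.347).

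KIF1A, the main carrier of synaptic vesicle precursors and dense core vesicles, was at 269 and 257 without virus and 249, 229 and 254 with control virus. In the arrays labelled shMYCN it was at 245 and 271, 196 and 255 and 272 and 256. The groups overlapped at every hour, and the 48-hour arrays labelled shMYCN held the lowest value of all. The mean log2 difference was 0.02 ± 0.08 (SE; limma adjusted p = 0.845). The remaining transport kinesins that did not pass ran from -0.34 (KIF21B, limma adjusted p = 0.112) to 0.17 (KIF16B).

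**Figure D2:**
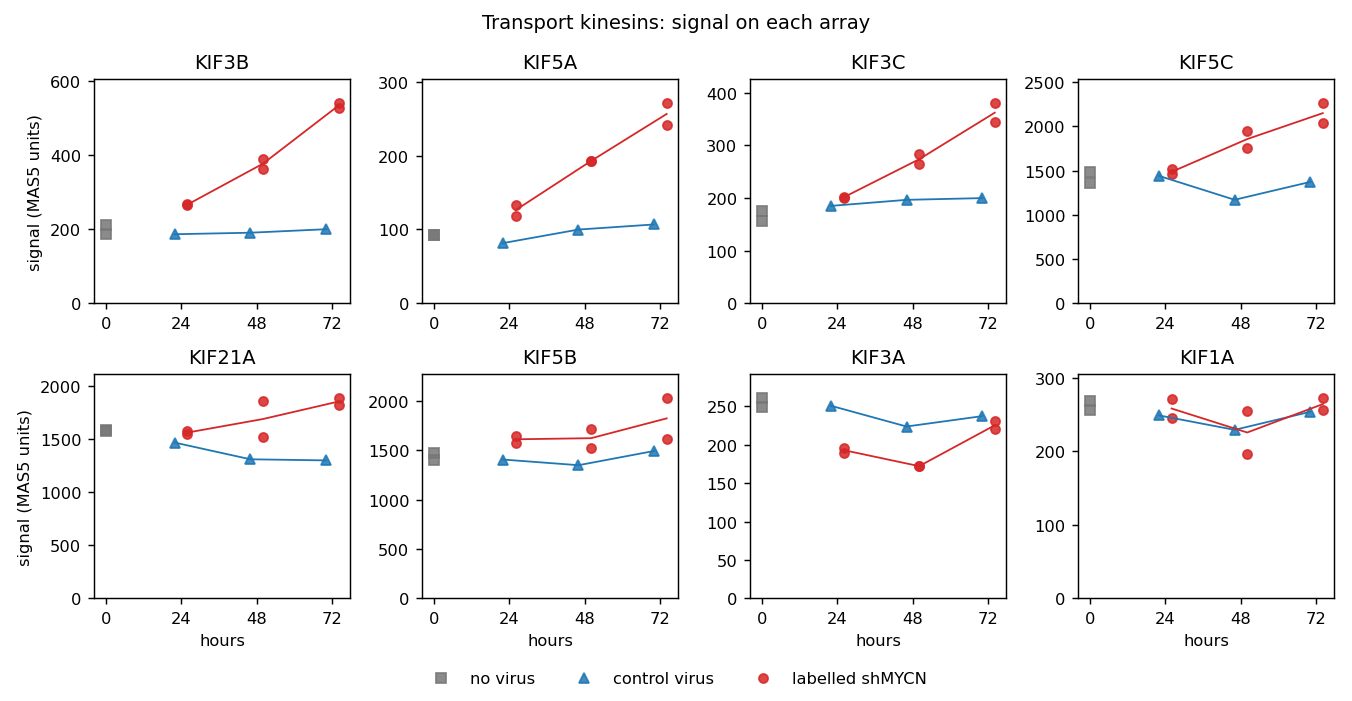
Signal (vertical, linear MAS5 units, each axis from 0) against hours for 8 transport kinesins. Symbols are grey squares for no virus, blue triangles for control virus and red circles for arrays labelled shMYCN, with lines through the group means. KIF3B and KIF5A separate most, KIF3A is lower at 24 and 48 hours, and KIF1A overlaps the controls.

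KIF1B, which carries mitochondria or synaptic vesicle precursors depending on its tail, gave different answers from different probe sets. The probe set that represented the gene, 225878_at, was at 254 and 274 without virus, 273, 253 and 280.3 with control virus and 239.5 to 279 in the arrays labelled shMYCN, a mean log2 difference of -0.03 (SE 0.07). Probe set 209234_at was at 167 and 163 without virus, 162, 169 and 171 with control virus, and 203 and 192, 225 and 248 and 304 and 281 in the shMYCN-labelled arrays at 24, 48 and 72 hours. All 6 of those arrays were above the other 5 on this probe set, and its mean log2 fold change was 0.48 ± 0.06 (SE; limma over all 41091 probe sets with 1 symbol, adjusted p = 0.00137). The third above the filter, 226968_at, gave -0.04 (limma adjusted p = 0.743). Which KIF1B transcripts each probe set reads was not tested.

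Of the 24 other probe sets above the filter, which belonged to 19 member genes, 14 were of genes called over the 3 hours. Of these, 12 had the same sign as the probe set that represented the gene, 5 passed in the same direction and 0 passed in the opposite one. Among genes that were not called, KIF26A 232069_at was lower at -0.37 (limma adjusted p = 0.0403), and KIF16B 232083_at was lower at 72 hours, at -0.65 (0.049).

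Among the other kinesins, 2 of 6 tested were higher over the 3 hours and 0 were lower (limma), beside 22.2% and 15.8% of all genes. At an unadjusted p under 0.05, 1 of the 6 was lower, beside 2325 of all 11865 genes. KIF9, a motor of motile cilia, was at 151 and 129 without virus and 136, 106 and 113 with control virus, and at 173 and 139, 258 and 195 and 254 and 211 in the arrays labelled shMYCN. The 24-hour arrays overlapped the others, and the later ones were higher. Its mean log2 fold change was 0.70 ± 0.11 (SE; limma adjusted p = 0.000421), but 228429_x_at and 230701_x_at gave 0.11 and -0.26 and did not pass, and the mean of all KIF9 probe sets gave 0.08. The dim KIF9 probe set 223778_at was lower at 72 hours, at -0.64 (limma adjusted p = 0.0132). KIF9 was represented by 231319_x_at. That name and those of 228429_x_at and 230701_x_at end in x_at, which marks probes that may bind other transcripts. KIF26B, a kinesin that takes part in cell adhesion and polarity, was at 54.0 and 38.2 without virus, 55.1, 39.2 and 46.5 with control virus, and 51.9 and 50.3, 46.5 and 66.2 and 87.4 and 89.1 in the arrays labelled shMYCN. The groups overlapped except at 72 hours, and the log2 fold change of 0.34 ± 0.12 (SE; limma adjusted p = 0.037) lost its call in 10 other settings, quantile normalization and median scaling among them, and at a threshold of 0.01.

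The depolymerase KIF2A had a mean log2 difference of -0.14 (limma adjusted p = 0.0717), and KIF7, which acts in Hedgehog signalling at the cilium, had -0.03 (0.809). KIF6 and KIF26A had 0.22 (0.181) and 0.0033 (0.987). The antisense transcript KIF25-AS1 was higher at 0.41 ± 0.13 (SE; limma adjusted p = 0.0268), on a signal of 24.9 to 66.7.

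**Figure D3:**
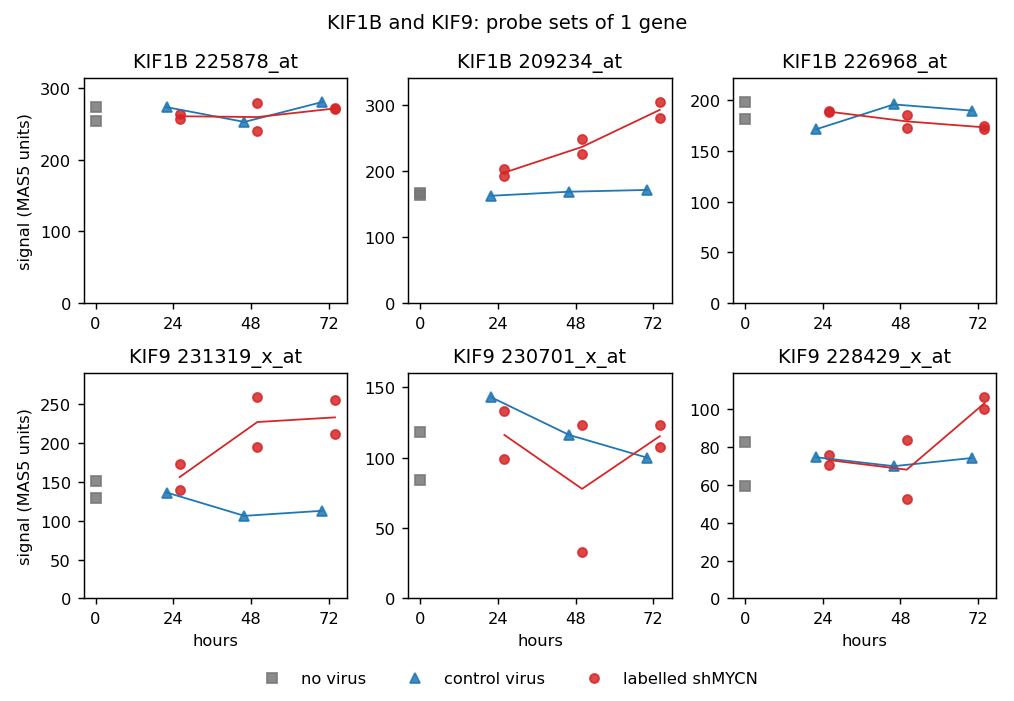
Signal (vertical, linear MAS5 units, each axis from 0) against hours for the 3 KIF1B and the 3 KIF9 probe sets above the filter, with grey squares for no virus, blue triangles for control virus and red circles for arrays labelled shMYCN. For KIF1B the red circles leave the controls on 209234_at alone, and for KIF9 they separate most on 231319_x_at.

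Members below the filter were KIF12, KIF17, KIF19, KIF24, KIF25, KIF27, KIF2B, KIF1C-AS1, KIF9-AS1 and KIF23-AS1. The highest signal on any array, for the probe set that represented each gene, was 21.8 for KIF12, 19.1 for KIF25, 16.8 for KIF19 and 15.1 for KIF17. It was 13.9 for KIF27, 12.9 for KIF24 and 6.5 for KIF2B, and 2.5, 23.0 and 17.1 for the antisense transcripts of KIF1C, KIF9 and KIF23. They were not tested in the gene fit.

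**Figure D4:**
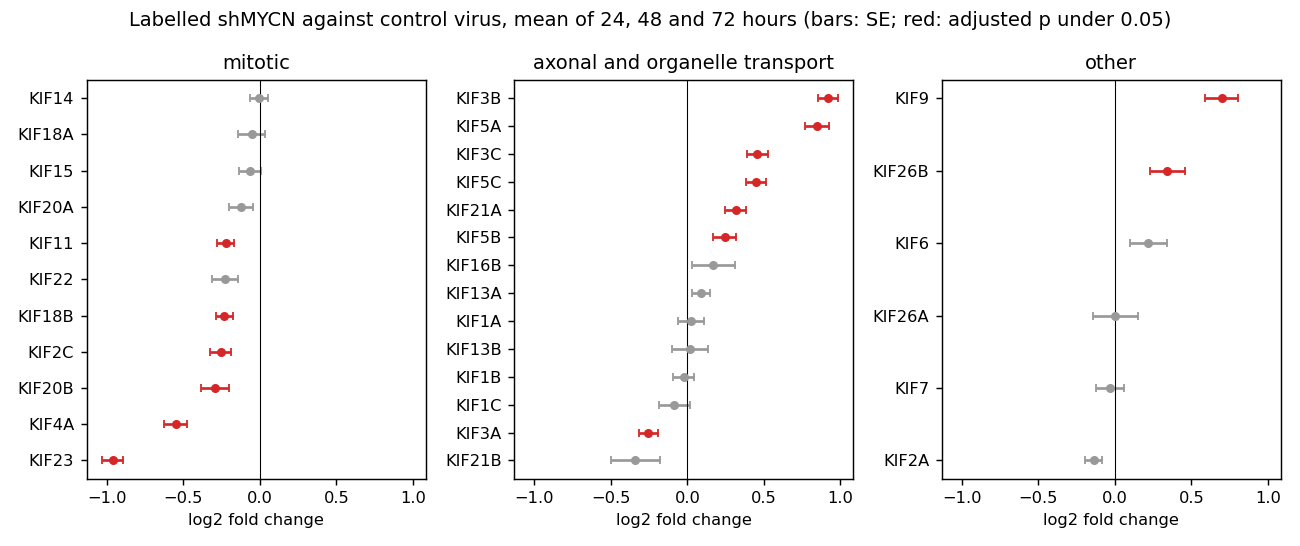
Log2 fold change on the log2(signal + 16) scale (horizontal) of arrays labelled shMYCN against control virus, averaged over 3 hours, for the 31 tested kinesins in 3 panels. Bars are the standard error of the limma fit, and red marks an adjusted p under 0.05. All 11 mitotic points lie below 0, with KIF23 at -0.96, while the transport points run from KIF21B at -0.34 to KIF3B at 0.92.

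Without regard to hour, the 6 arrays labelled shMYCN lay wholly below the other 5 for KIF23, KIF4A and KIF20B, which is 3 of 11 mitotic kinesins, beside 6.52% of all genes tested. They lay wholly above for KIF3B, KIF3C, KIF5A and KIF5B, which is 4 of 14 transport kinesins, beside 8.42% of all genes.

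The question of when each group moved was read from each hour against its own control virus array, which has no replicate and was assumed to vary like the groups of 2. At 24 hours KIF23 alone was lower, at -0.64 ± 0.12 (SE; limma adjusted p = 0.031), which is 1 of 11 mitotic kinesins beside 0.59% of all genes. Of 14 transport kinesins 0 were higher at 24 hours by limma, beside 0.118% of all genes. At an unadjusted p under 0.05, 2 of the 14 were higher, beside 830 of all 11865 genes. KIF3B and KIF5A were the nearest, at 0.48 and 0.54 (limma adjusted p = 0.0855 and 0.0977). The 24-hour call of KIF23 was lost when any of 6 arrays was left out. These were either array without virus, and either array labelled shMYCN at 24 or 72 hours. Without either 48-hour array labelled shMYCN, KIF3B and KIF5A were called higher at 24 hours. Calls among all genes, averaged over the hours, rose without either of those 48-hour arrays too.

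At 48 hours 2 of 11 mitotic kinesins were lower, KIF23 at -1.01 ± 0.12 (SE; limma adjusted p = 0.000244) and KIF4A at -0.66 ± 0.13 (0.0055), beside 6.9% of all genes. Of the transport kinesins 4 of 14 were higher, beside 10.1% of all genes: KIF3B at 0.93, KIF5A at 0.85, KIF5C at 0.66 and KIF3C at 0.45. KIF3A was lower, at -0.35 ± 0.11 (SE; limma adjusted p = 0.047). KIF9 was higher at 0.98 ± 0.19 (SE; limma adjusted p = 0.00497). Without array B labelled shMYCN at 48 hours, KIF20A and KIF22 were also called lower. Calls among all genes, averaged over the hours, rose in that setting too.

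At 72 hours 6 of 11 mitotic kinesins were lower, beside 15.7% of all genes. KIF23 led at -1.24 ± 0.12 (SE; limma adjusted p = 1.91e-05) and KIF4A followed at -0.85 ± 0.13 (0.000413), ahead of KIF2C, KIF18B, KIF22 and KIF11. Of the transport kinesins 5 of 14 were higher, beside 18.3% of all genes, from KIF3B at 1.35 ± 0.11 (SE; limma adjusted p = 8.06e-06) and KIF5A at 1.15 ± 0.13 (6.72e-05) to KIF21A at 0.51 ± 0.12 (0.00692). The median log2 difference at 24, 48 and 72 hours was 0.03, -0.22 and -0.39 for mitotic kinesins and 0.06, 0.21 and 0.06 for transport kinesins. Without either of the dissimilar 48-hour arrays labelled shMYCN, KIF14, KIF15, KIF20A and KIF20B joined the mitotic kinesins called lower at 72 hours. Calls among all genes, averaged over the hours, rose in the same settings. The gain is therefore not shown to be particular to mitotic kinesins, and the share of all genes at 72 hours was not compared.

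**Figure D5:**
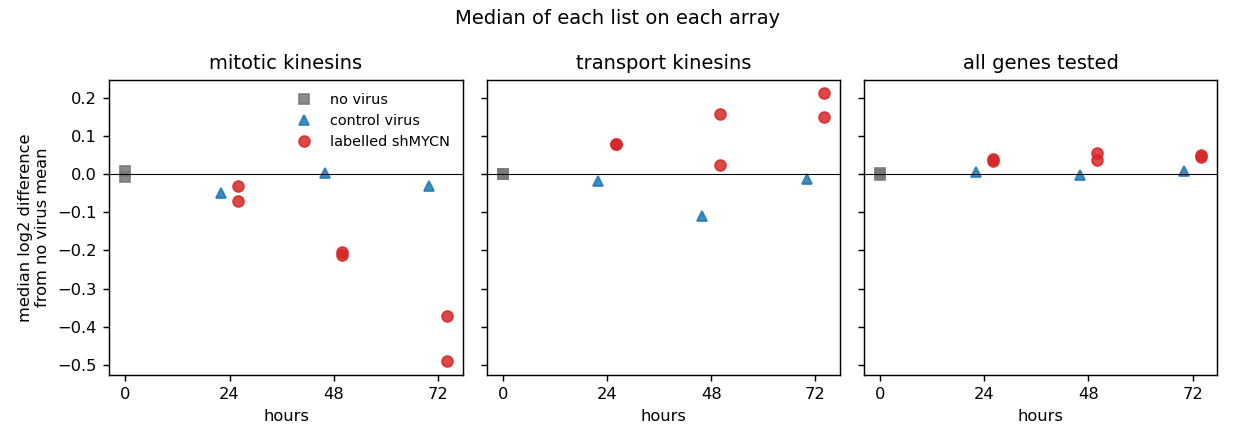
Median over the members of each list of the log2 difference from the mean of the 2 arrays without virus (vertical), for each array against hours. The mitotic median of the arrays labelled shMYCN goes from -0.07 and -0.03 at 24 hours to -0.49 and -0.37 at 72 hours, that of the control virus arrays stays between -0.05 and 0.0015, and the median of all genes tested stays within 0.06 of 0.

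The change of the difference from 24 to 72 hours was tested directly. It was negative for 4 mitotic kinesins, KIF2C at -0.84 ± 0.17 (SE; limma adjusted p = 0.01), KIF4A at -0.72 (0.0296), KIF18B at -0.64 (0.0158) and KIF23 at -0.59 (0.0425), beside 5.82% of all genes. It was positive for 3 transport kinesins, KIF3B at 0.87 ± 0.16 (SE; limma adjusted p = 0.00726), KIF3C at 0.70 (0.0248) and KIF5C at 0.60 (0.0362), beside 4.52% of all genes. KIF2C was the mitotic motor with the largest change of this kind, since its 24-hour difference was 0.13 and its 72-hour difference -0.71. The 7 calls became fewer without array A or B at 24 or 72 hours and more without either array at 48 hours, all labelled shMYCN. Calls among all genes over the 3 hours fell and rose in the same settings.

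Within the arrays labelled shMYCN, which the comparisons above share, 13 of 31 kinesins differed between 72 and 24 hours. Lower at 72 hours were 7 of 31, beside 18.3% of all genes: KIF4A, KIF2C, KIF23, KIF18B, KIF22, KIF11 and the transport motor KIF1C. Higher were 6 of 31, beside 18.1% of all genes: KIF3B, KIF5A, KIF3C, KIF5C, KIF26B and KIF9. Over the whole family both counts were near the shares of all genes, while 6 of the 11 mitotic kinesins were lower. KIF1C, a motor of Golgi and integrin traffic, was at 67.1 and 84.2 at 24 hours and 41.6 and 38.7 at 72 hours, a log2 fold change of -0.70 ± 0.14 (SE; limma adjusted p = 0.00267). Its control virus values were 70.7, 52.3 and 60, and its mean difference from control virus did not pass. Without either 48-hour array labelled shMYCN more kinesins were called. Calls among all genes against control virus, averaged over the hours, also rose in those settings.

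Control virus by itself was compared with no virus. Of 31 kinesins 0 passed by limma, beside 0.0337% of all genes. At an unadjusted p under 0.05, 346 of all 11865 genes were higher and 285 lower. Of the 31 kinesins, 2 reached that unadjusted level. These were KIF3C with a log2 difference of 0.21 and KIF21A with -0.22 (limma adjusted p = 0.905 and 0.883).

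Proteins that work with the motors were read from lists of known partners. Of 13 tested partners of mitotic kinesins 5 were lower and 1 was higher over the 3 hours, beside 15.8% and 22.2% of all genes, with a median log2 difference of -0.11. RACGAP1, which joins KIF23 in centralspindlin, was lower at -0.48 ± 0.06 (SE; limma adjusted p = 0.000157). PRC1, the midzone crosslinker that recruits KIF4A, was lower at -0.36 ± 0.06 (SE; limma adjusted p = 0.000677). The mitotic kinase PLK1 was lower at -0.54 and the Aurora B complex subunit CDCA8 at -0.44 (limma adjusted p = 0.000414 and 0.000241), while Aurora A (AURKA) was higher at 0.31 (0.00129). Outside the rule, the minus-end spindle motor KIFC1 was higher at 0.23 and KIFC3 at 0.37 (limma adjusted p = 0.0259 and 0.0471), and the centromere motor CENPE had -0.02 (0.814).

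Of 22 tested light chains, adaptors and cargo partners 10 were higher and 2 lower, beside 22.2% and 15.8% of all genes, with a median log2 difference of 0.19 beside 0.037 for all genes. TRAK2, which links kinesin-1 to mitochondria, was higher at 0.83 ± 0.06 (SE; limma adjusted p = 2.2e-06). SYBU, an adaptor for syntaxin vesicles, was higher at 0.53, and RHOT1, the mitochondrial anchor of that machinery, at 0.46 (limma adjusted p = 5.19e-05 and 0.00197). KIFBP, which binds kinesin motor domains and blocks them, was lower at -0.62 ± 0.06 (SE; limma adjusted p = 1.64e-05).

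Cytoplasmic dynein carries cargo the opposite way, back to the cell body. Of its 21 genes and partners tested 7 were higher and 3 lower, beside 22.2% and 15.8% of all genes, with a median log2 difference of 0.096. Its intermediate chains split, with the neuronal DYNC1I1 higher at 1.08 ± 0.10 (SE; limma adjusted p = 9.47e-06) and the widely expressed DYNC1I2 lower at -0.35 ± 0.06 (SE; limma adjusted p = 0.000756). The adaptors BICD1 and BICD2 were higher at 0.82 and 0.53 (limma adjusted p = 6.01e-06 and 0.000655).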

How the data were processed

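Per array the authors deposited a linear MAS5-type signal intensity of 54675 probe sets (11 Affymetrix arrays). MAS5 and GCOS are named, without versions, per the submitters' processing notes. The values themselves show scaling: averaged over the middle 96 percent of each array they came to 100.01, so a change of total RNA cannot be seen. For detection calls and for the array's genome build the sources used here give nothing. The number of arrays limits the precision.

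Gene names of the probe sets are those of the platform annotation (41097 with 1 symbol, 1801 with several, 11777 unnamed here), with symbols updated through Entrez numbers and RefSeq GRCh38.p14. No kinesin probe set had several symbols. The brightest probe set (by mean log2 signal) stood for each gene, and the dimmest 40 percent of genes (signal under about 14.8) were left out, which left 11865. Folds are on the log2(signal + 16) scale, which understates changes of dim genes. limma 3.58.1 (R 4.3.3) fitted means of 7 groups over the 11 arrays, with eBayes and a trend in the variance (4 residual and 7.35 prior degrees of freedom). Errors beside log2 values are standard errors of that fit. P-values are two-sided and adjusted by Benjamini and Hochberg over all genes tested, with a threshold of 0.05. Only the 4 groups with 2 arrays gave the spread. Other probe sets of a gene were tested in a fit of 41091 probe sets. The procedure was tested on simulated data.

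The members, the gene lists and the tests were chosen with earlier results of these data known. Full values were planned for KIF4A, KIF11, KIF23, KIF1A, KIF5C and KIF21A, for the 6 members with the smallest p in every list, and for members called at 24 hours or between control virus and no virus. Of these, KIF2A, KIF6, KIF7 and KIF26A were given by their mean log2 difference and adjusted p alone. KIF1B, KIF1C, KIF5B, KIF14, KIF15, KIF18A, KIF20A, KIF22 and KIF25-AS1 were added after their values were seen, as were the genes named from the partner lists and the choice of promoters shown. Promoter windows came from RefSeq, and KIF5A, KIF13B and KIF21B had no entry. Each result was recomputed with other offsets (1 and 64), scalings (quantile, median), filters (none, 60 percent), a mean over probe sets, no variance trend, the array letter as a block, an additive model, a threshold of 0.01, and with each array left out.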

Additional observations from a re-analysis of the deposited data

Results flagged for a closer look

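For 7 kinesins the difference between arrays labelled shMYCN and control virus was not the same at 72 hours as at 24 hours, by a limma test of that change. The change was 0.87 on the log2 scale for KIF3B, 0.70 for KIF3C and 0.60 for KIF5C. It was -0.84 for KIF2C, -0.72 for KIF4A, -0.64 for KIF18B and -0.59 for KIF23. Each value rests on 1 control virus array at either hour.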

How the results depend on the processing

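For 19 named kinesins, 395 values under 21 alternative settings were compared with the reported log2 fold change: 367 stayed on the same side of the threshold, 24 lost the call and 4 gained one. A change of sign was counted only where the gene was called in either fit, and 0 were found. Signs of genes called in neither fit were not compared. The 16 called members kept their sign under offsets of 1 and 64, quantile normalization and median scaling. Over the 3 hours KIF20B lost its call in 6 of these settings, KIF5B in 7 and KIF26B in 10, and at 72 hours KIF22 lost its call in 8. All 4 also missed a threshold of 0.01, which is not among the 21. The count of 6 mitotic kinesins lower over the 3 hours ranged from 2 to 8 when 1 array was left out, and 2 was without the 72-hour control virus array. Differences between arrays A and B had correlations between hours, over genes, of -0.05, 0.04 and 0.10. These values cannot settle whether the letters mark separate culture series. With the letter as a replicate block 7 mitotic kinesins were lower and 6 transport kinesins higher over the 3 hours.

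The 24-hour count of mitotic kinesins fell from 1 to 0 with no filter, with the mean of all probe sets, without trend and at a threshold of 0.01, and ranged from 0 to 1 when an array was left out. The 24-hour count of transport kinesins went from 0 to 1 with the mean of all probe sets and ranged from 0 to 2 when an array was left out. Leaving out arrays gave 2 to 4 mitotic kinesins at 48 hours and 4 to 10 at 72 hours. The 7 changes between 24 and 72 hours became 4 with no filter, 4 without trend and 1 at a threshold of 0.01, and ranged from 2 to 13 when an array was left out. The 13 kinesins that differed between 72 and 24 hours within the arrays labelled shMYCN became 8 in the additive model and ranged from 9 to 20 when an array was left out. Calls among all genes, averaged over the hours, also rose without either 48-hour array labelled shMYCN. The cause of these shifts was not tested.

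The mitotic median was -0.24 with an offset of 1, -0.21 with an offset of 64, -0.22 with quantile normalization, -0.26 with median scaling and -0.22 with the mean of all probe sets, and ranged from -0.36 to -0.069 when an array was left out. The transport median was 0.095 with an offset of 64, 0.088 with no filter, 0.28 with a filter of 60 percent and 0.061 with the mean of all probe sets, and ranged from 0.079 to 0.16 when an array was left out. The additive model gives no value for a single hour or for the change between hours. Dim probe sets, such as those of KIF6 and KIF13B, allow no firm statement.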
